A study of Bos taurus with 34 samples.

Results

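bta-miR-423-5p, bta-miR-423-3p, bta-miR-320a, bta-miR-186 and bta-miR-1839, written below without the species prefix, are microRNAs proposed as reference molecules for cell-free blood, that is, as molecules against which others are scaled. They were taken by name from the deposited bovine counts, and they are 5 of the 800 miRNA names listed for each library. Small RNA libraries came from 17 dairy cows after calving, 11 with SCE (subclinical endometritis, in which the lining of the uterus is inflamed but the cow shows no sign of it) and 6 healthy. The labels give samplings at day 45 and day 25, and the design text gives 44 and 21 days after calving. The tissue is serum in the labels and plasma in the design text. The groups used were SCE cows at day 45 (n = 11), healthy cows at day 45 (n = 6), SCE cows at day 25 (n = 11) and healthy cows at day 25 (n = 5). The same cows supplied both days, and status was assigned to the animal by cytology and biopsy of the endometrium, according to the design text. The sources used here give no breed, age or treatment, and each cow is 1 animal with 1 library per day.

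A miRNA is cut from a hairpin precursor, and either arm of that hairpin, named 5p or 3p, can be loaded onto an Argonaute protein, where it pairs with messenger RNAs and lowers their output. Some miRNAs leave cells bound to Argonaute or inside vesicles and last in cell-free blood, where red blood cells, white blood cells and platelets are known sources. A reference miRNA is used because its amount is taken to be steady, so its spread between libraries carries over to every value scaled by it. miR-423-5p has been studied as a marker of heart failure in human plasma, and its partner arm miR-423-3p has served as a reference in human blood. The miR-320 precursor is known from mouse to be made without the usual first cut by Drosha. In the RefSeq annotation of the ARS-UCD 2.0 assembly, which is not the build of the counts, MIR423 lies within the span of NSRP1, MIR186 within ZRANB2 and MIR1839 within MROH1. miR-320a has 2 hairpin genes there, MIR320A-1 outside any protein-coding gene and MIR320A-2 within the span of RNF180, and the counts do not tell them apart. The related name miR-320b had 0 counts in 24 of the 33 libraries and never more than 2.

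Of the 34 labelled libraries 33 were used, because the day-25 file of healthy cow 3 held the values and the header of its day-45 library. Library totals ran between 678389 and 28872153 counts, and SCE cow 10 had the lowest totals, 678389 counts at day 45 and 1343401 at day 25. Title numbers ran from 31 to 52 in SCE cows and from 13 to 24 in healthy cows, so status cannot be told apart from anything that follows those numbers. Red blood cell miRNAs (miR-486, miR-451, miR-144, miR-363 and miR-182, summed) made up a median of 36.9% of counts in SCE cows at day 45 (range 4.18% to 53.7%), against 48.6% in healthy cows at day 45 (15.2% to 73.1%). At day 25 the median was 11.5% in SCE cows (4.22% to 79.4%), against 45.4% in healthy cows (24.9% to 81.7%). Nearly all of this sum was miR-486. Alone it had medians of 36.5% in SCE cows and 48.0% in healthy cows at day 45, and 10.8% and 45.3% at day 25. For miR-451 the log2 fold change of SCE over healthy cows in edgeR was −0.27 ± 0.61 (SE) at day 45. At day 25 it was −0.44 ± 0.65. So the contrast in the sum is mostly that of miR-486. Taken singly, 4 of the 5 had lower values in SCE cows at each day. Their median log2 fold change was −0.78 at day 45 and −0.44 at day 25, against 0.11 and −0.05 over all miRNAs tested. At day 45, 2 of the 5 had an unadjusted p under 0.05 in edgeR, where 10.2% of 382 miRNAs did. At day 25 it was 0 of the 5, where 20.2% of 372 did. The summed list of 8 white blood cell miRNAs had medians of 4.05% in SCE cows and 1.07% in healthy cows at day 25, and that of 5 platelet miRNAs 0.948% in SCE cows and 0.662% in healthy cows. All of these percentages are shares of the same totals, which include miR-486. In edgeR at day 25 the median log2 fold change of SCE over healthy cows was 0.21 for the 8 and 0.06 for the 5. An unadjusted p under 0.05 was reached by 0 of the 8 and 1 of the 5, where 20.2% of 372 miRNAs reached it. miR-223 is in both lists. What part these sources have in the results below was not tested beyond the adjustments given.

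How steady each molecule was between libraries was described first, by the SD over the 33 libraries of log2 CPM, the count scaled to library size, after TMM scaling, which sets a common scale from the bulk of the miRNAs. On that scale miR-423-3p varied least of the 5, with an SD of 0.49, or 1.41-fold per SD. miR-1839 had an SD of 0.59, miR-186 of 0.62, miR-320a of 0.80 and miR-423-5p of 0.92. The 406 miRNAs tested had a median SD of 1.15, so all 5 lay below it. Most of those 406 are scarce, and scarce miRNAs also scatter through counting. Among the 58 miRNAs with a mean of 1000 CPM or more, where the median SD was 0.87, miR-423-3p ranked 2, miR-186 ranked 8, miR-320a ranked 23 and miR-423-5p ranked 31. miR-1839 was below that abundance and ranked 19 of the 406. miR-30e-5p, with an SD of 0.40, was the abundant miRNA of lowest spread, and miR-142-5p at 0.51, miR-140 at 0.54 and miR-148a at 0.55 followed miR-423-3p. The order depended on the scale. With library totals alone the SD was 0.65 for miR-1839, 0.70 for miR-423-3p, 0.76 for miR-423-5p, 0.84 for miR-320a and 1.09 for miR-186, so that miR-1839 varied least and miR-186 most. miR-186 also varied less than miR-1839 with DESeq2's size factors, at 0.59 and 0.64.

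**Figure D1:**
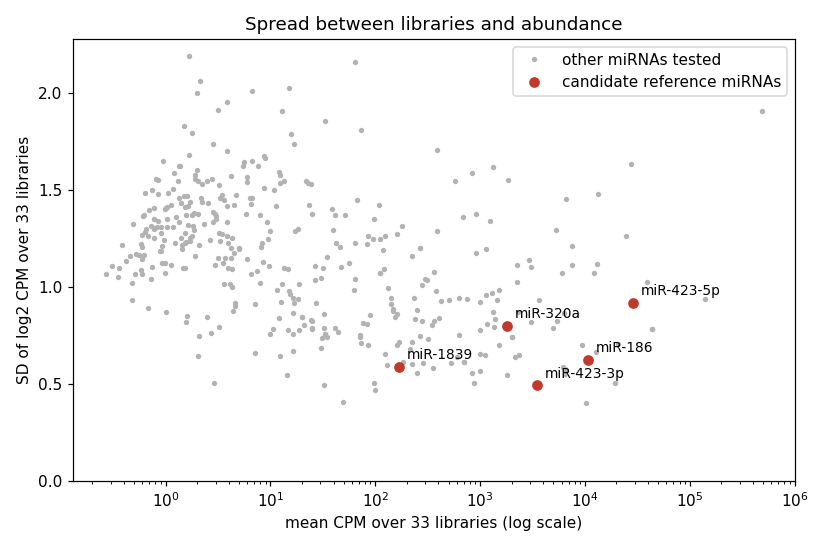
Each point is 1 miRNA, with its mean CPM over 33 libraries on a log scale on the x axis and the SD of its log2 CPM over the same libraries on the y axis. The 5 candidate reference miRNAs are in red, and miR-423-3p (SD 0.49) lies lowest among them while miR-423-5p (SD 0.92) lies highest, on the TMM scale.

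The order of spread was a different one within animals. The SD attributed to repeated sampling of 1 cow came from the day-45 minus day-25 difference in the 16 cows with both days. The mean difference of each status was first subtracted, so a shift shared by the cows of a status is left out. This SD was 0.39 for miR-186, 0.49 for miR-1839, 0.54 for miR-423-3p, 0.80 for miR-320a and 0.84 for miR-423-5p. For miR-186 such a shift was seen, with lower values at day 45 in 10 of 11 SCE cows. With nothing subtracted, the median size of the day difference was 0.29 on the log2 scale for miR-1839 and 0.38 for miR-186, against 0.82 for miR-423-5p. A difference above 1 on the log2 scale was seen for miR-320a in 7 of 16 cows, for miR-423-5p in 5, for miR-186 in 4, for miR-1839 in 3 and for miR-423-3p in 2. SCE cow 8 gave the largest difference for miR-423-5p, miR-423-3p and miR-1839, at 2.53, 1.71 and 1.49 on the log2 scale. miR-423-5p in that cow was 5688 CPM at day 45, against 32816 CPM at day 25. By the geNorm M value, which is the mean SD of a molecule's log2 ratios to the other 4, miR-423-3p had 0.76, miR-1839 0.86, miR-423-5p and miR-186 0.98 each, and miR-320a 1.13.

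The levels of each molecule follow, arm by arm and then gene by gene. By mean CPM miR-423-5p ranked 6 among all miRNAs, miR-186 ranked 15, miR-423-3p 30, miR-320a 43 and miR-1839 105. miR-423-3p was scarcer than its partner arm in every library. At day 45 miR-423-5p ran from 5688 to 49281 CPM with a median of 17819 in SCE cows, against 15628 to 49231 CPM with a median of 32893 in healthy cows. At day 25 it ran from 11234 to 87594 CPM with a median of 21920 in SCE cows, against 83924, 66769, 10645, 22582 and 34618 CPM in healthy cows 1, 2, 4, 5 and 6. The groups overlapped at both days, and healthy cow 4 at day 25 lay below every SCE cow of that day while SCE cow 7 lay above every healthy one. The log2 fold change of SCE over healthy cows was −0.58 ± 0.41 (SE) at day 45 and −0.75 ± 0.50 at day 25, with adjusted p of 0.662 and 0.416 in edgeR's quasi-likelihood test. Single cows moved these values: with 1 cow left out they lay between −0.71 and −0.31 at day 45 and between −1.04 and −0.26 at day 25, the value nearest 0 coming without healthy cow 1 at each day. With library totals they were 0.051 at day 45 and 0.18 at day 25.

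On the TMM scale miR-423-3p had the smallest difference between statuses of the 5, but not with library totals. At day 45 it ran from 1545 to 5666 CPM with a median of 2700 in SCE cows, against 2537 to 4386 CPM with a median of 3220 in healthy cows. At day 25 it ran from 2293 to 8010 CPM with a median of 3530 in SCE cows, against 5392, 4966, 1969, 2247 and 3797 CPM in healthy cows 1, 2, 4, 5 and 6. The groups overlapped at both days, with every healthy cow of day 45 inside the SCE range, and the highest library was that of SCE cow 7 at day 25, which was also the highest for miR-423-5p. The log2 fold change was 0.01 ± 0.32 (SE) at day 45, with a 95% interval of −0.65 to 0.68, and 0.03 ± 0.35 at day 25, with an interval of −0.71 to 0.77. The adjusted p values in edgeR were 0.996 and 0.958. With library totals alone the log2 fold change was 0.66 at day 45 and 1.04 at day 25 (adjusted p = 0.419 and 0.0789 in edgeR), against 0.24 and 0.10 for miR-1839, on a scale where the median of all miRNAs moved by 0.60 and 0.93. These intervals do not show that the amount is equal in both statuses, since they reach well past 0.5 on the log2 scale to each side.

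miR-320a divided the healthy cows at day 25. It ran from 837 to 1885 CPM with a median of 1102 in SCE cows, against 1050, 774, 6468, 1001 and 3661 CPM in healthy cows 1, 2, 4, 5 and 6. Healthy cows 4 and 6 lay above every SCE cow, healthy cows 1 and 5 within the SCE range, and healthy cow 2 just below it. The day-45 values ran from 826 to 3182 CPM with a median of 1226 in SCE cows, against 1367 to 4731 CPM with a median of 1627 in healthy cows. Cow by cow the level did not hold: healthy cow 2 had 3683 CPM at day 45, against 774 CPM at day 25, and healthy cow 4 had 1406 CPM at day 45, against 6468 CPM at day 25. The log2 fold change of SCE over healthy cows at day 25 was −1.13 ± 0.41 (SE), with an unadjusted p of 0.0119 and an adjusted p of 0.185 in edgeR, and it was −0.46 without healthy cow 4. At day 45 it was −0.44 ± 0.40, with an adjusted p of 0.701.

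miR-186 had higher values in SCE cows at day 25 than in most healthy cows. It ran from 9838 to 19571 CPM with a median of 13044 in SCE cows, against 9404, 5978, 5631, 10066 and 10196 CPM in healthy cows 1, 2, 4, 5 and 6. The overlap came from the lowest SCE cow, the shallow cow 10 at 9838 CPM, and from the healthy cows just above it. The day-45 values ran from 4362 to 18124 CPM with a median of 10490 in SCE cows, against 3629 to 14310 CPM with a median of 8811 in healthy cows, and the ranges covered each other. The log2 fold change was 0.69 ± 0.31 (SE) at day 25, with an unadjusted p of 0.0342 and an adjusted p of 0.220, and 0.32 ± 0.39 at day 45, with an adjusted p of 0.803, in edgeR. On library totals alone the day-25 value was 1.76 with an adjusted p of 0.0357, with the same move of the median.

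miR-1839, the scarcest of the 5, had low and even values in SCE cows at day 25. It ran from 97.6 to 180 CPM with a median of 114 in SCE cows, against 292, 134, 272, 249 and 160 CPM in healthy cows 1, 2, 4, 5 and 6. Healthy cows 1, 4 and 5 lay above every SCE cow and the other 2 within the SCE range. The day-45 values ran from 49.4 to 315 CPM with a median of 139 in SCE cows, against 168 to 261 CPM with a median of 213 in healthy cows. The lowest value, in SCE cow 10 at day 45, rested on 38 counts, for which counting alone gives an SD of 0.23 on the log2 scale. The log2 fold change was −0.85 ± 0.29 (SE) at day 25, with an unadjusted p of 0.00853 and an adjusted p of 0.185, and −0.43 ± 0.36 at day 45, with an adjusted p of 0.690, in edgeR. Without scaling beyond library totals the day-25 value was 0.10.

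**Figure D2:**
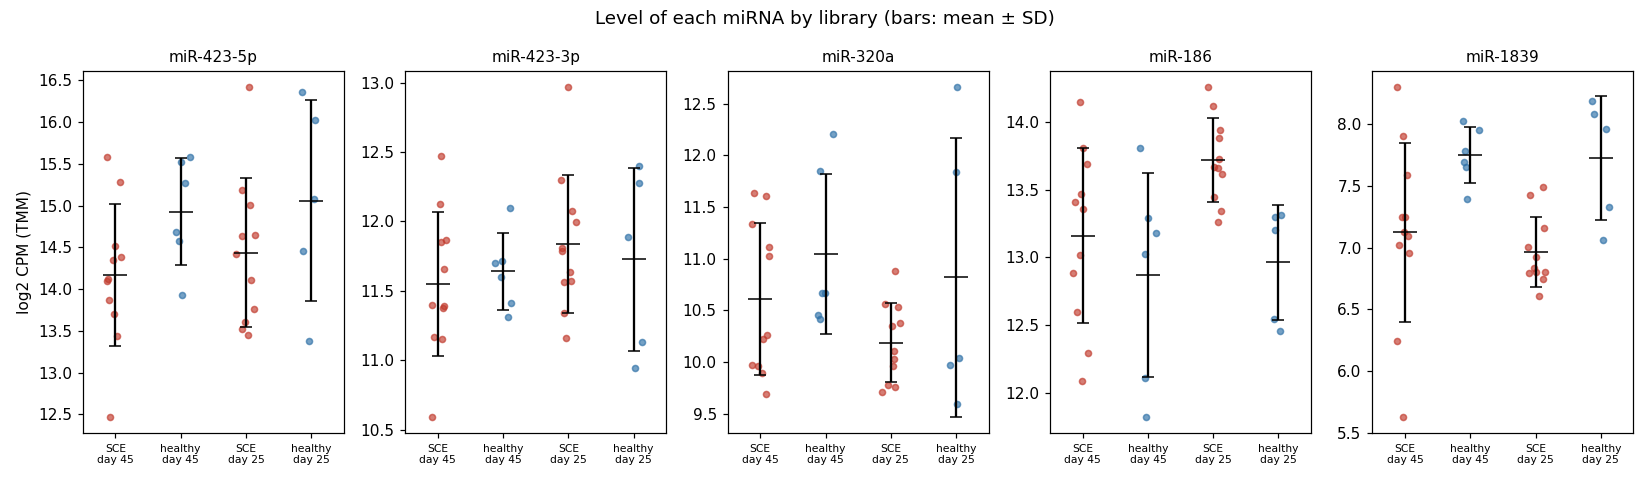
The y axis of each panel is the log2 CPM after TMM scaling of 1 miRNA, each point is 1 library, and bars give the mean and SD for SCE cows at day 45, healthy cows at day 45, SCE cows at day 25 and healthy cows at day 25. The panels have separate y ranges; the 2 healthy day-25 libraries of high miR-320a stand above the other libraries of that day.

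Set against all miRNAs tested, none of the 5 passed an adjusted p of 0.05 between statuses in edgeR at either day. At day 25 that threshold was passed by 0.269% of 372 miRNAs, a single one, miR-425-3p, and the number called was 0 to 7 with 1 cow left out and 14 in DESeq2. At day 45 it was passed by 0% of 382, with 39 of them at an unadjusted p under 0.05 and 1 called by DESeq2. An unadjusted p under 0.05 was reached at day 25 by 3 of the 5, where 20.2% of the 372 reached it. Of these 3, miR-320a and miR-1839 had lower values in SCE cows, as 8.6% of the 372 did at that p, and miR-186 had higher values, as 11.6% did. At day 45 it was reached by 0 of the 5, where 10.2% of the 382 reached it. The median log2 fold change of the 5 was −0.43 at day 45 and −0.75 at day 25, against medians of 0.11 and −0.05 over all miRNAs tested. No group of SCE libraries was apart from the healthy libraries of its day for any of the 5, where 0% of miRNAs at day 45 and 0.269% at day 25 had groups that did not overlap. With miR-451 over miR-23a on the log2 scale, a usual measure of red blood cell RNA, as a covariate, the day-25 values were −0.48 for miR-423-5p, −1.01 for miR-320a, 0.65 for miR-186 and −0.81 for miR-1839. With miR-486 in place of miR-451 miR-423-5p turned to 0.25, and miR-320a, miR-186 and miR-1839 stood at −1.09, 0.50 and −0.73. The miR-451 covariate itself differed by status at day 25, with means of 1.92 in SCE cows and 2.71 in healthy cows. Mean log2 CPM was 12.10 and 12.18 for miR-451 but 10.18 and 9.47 for miR-23a. So that adjustment also takes in the status difference of miR-23a, and its part was not tested.

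**Figure D3:**
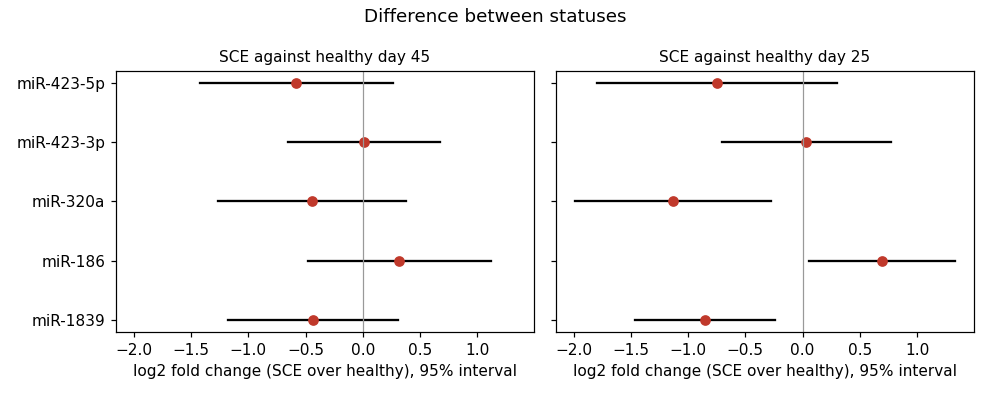
Points are log2 fold changes of SCE over healthy cows from edgeR and lines their 95% intervals, at day 45 on the left and day 25 on the right. At day 25 the intervals of miR-320a, miR-186 and miR-1839 leave out 0, before adjustment over the miRNAs tested, and at day 45 every interval includes 0.

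Between the 2 samplings no change passed the test in any of the 5. In SCE cows the log2 fold change of day 45 over day 25 was −0.57 ± 0.28 (SE) for miR-186, −0.54 ± 0.39 for miR-423-5p, −0.44 ± 0.27 for miR-423-3p, 0.48 ± 0.28 for miR-320a and 0.19 ± 0.29 for miR-1839. The adjusted p values in edgeR lay between 0.705 and 0.882, and 0% of 346 miRNAs passed, with 4.05% at an unadjusted p under 0.05, none of the 5 among them, and none called in DESeq2. miR-186 was lower at day 45 in 10 of 11 SCE cows and had an unadjusted p of 0.053, and it was higher at day 45 in 2 of 5 healthy cows. In healthy cows the values were −0.51 ± 0.56 for miR-423-5p and −0.25 ± 0.44 for miR-423-3p, and within 0.03 of 0 for the others, with errors of 0.42 to 0.61. Those values include healthy cow 3, which has day 45 alone. With cow as a block they were 0.014 for miR-423-5p and −0.084 for miR-423-3p, and miR-423-5p was higher at day 45 in 2 of 5 healthy cows. In SCE cows the block gave −0.34 for miR-423-5p, 0.35 for miR-320a and 0.084 for miR-1839, with no call. Over the 18 alternative fits in SCE cows, the block among them, miR-186 lay between −0.64 and −0.41. The fit without cow 10 is entered again among the 18 under another name. miR-423-3p lay between −0.56 and −0.20 over the same fits. Neither was called in any, and the smallest adjusted p in edgeR or DESeq2 was 0.598 for miR-186 and 0.669 for miR-423-3p. Without the block, 0% of 345 miRNAs passed in edgeR in healthy cows. There 2.9% had an unadjusted p under 0.05, none of the 5 among them, and none was called in DESeq2. Groups that did not overlap were seen for 0.58% of the 345 and for 0% of the 346 in SCE cows, and for none of the 5. The day effect differed most between statuses for miR-320a, at 0.66 ± 0.58, and miR-186, at −0.48 ± 0.46, with an adjusted p of 0.988 for all 5, and 0% of 406 miRNAs passed, with 1.72% at an unadjusted p under 0.05.

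The ratio of a pair of molecules read in the same library needs no scale, so each of the 10 pairs was compared between statuses at each day by an exact two-sided permutation test over cows, with p adjusted over the 20 tests. A single ratio passed, that of miR-186 to miR-1839 at day 25. It was 76.0 to 161 in SCE cows, against 32.2, 44.8, 20.7, 40.5 and 63.6 in healthy cows 1, 2, 4, 5 and 6. Every SCE cow lay above every healthy cow. The mean log2 ratio was 6.76 ± 0.40 in SCE cows and 5.24 ± 0.60 in healthy cows (SD, n = 11 and 5), a difference of 1.52 with an exact p of 2.29e-04, the smallest this design can give, and an adjusted p of 0.00458. With any 1 cow left out the difference stayed between 1.30 and 1.71 and the adjusted p between 0.00458 and 0.0147. Of all 69006 pairs of miRNAs tested at day 25, 0.213% had groups that did not overlap, and 19.8% had an exact p under 0.05, against 5 of the 10 pairs here.

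At day 45 the same ratio was 6.03 ± 0.91 on the log2 scale in SCE cows and 5.12 ± 0.92 in healthy cows (SD, n = 11 and 6), a difference of 0.91 with an exact p of 0.0680 and an adjusted p of 0.170. The groups overlapped, and SCE cow 8, at 3.79, lay below every healthy cow. Of 72771 pairs of miRNAs at day 45, 10.5% had an exact p under 0.05, against 2 of the 10 pairs here, and 0.0357% had groups that did not overlap. Whether the ratio's difference between statuses changed between the days was not tested.

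**Figure D4:**
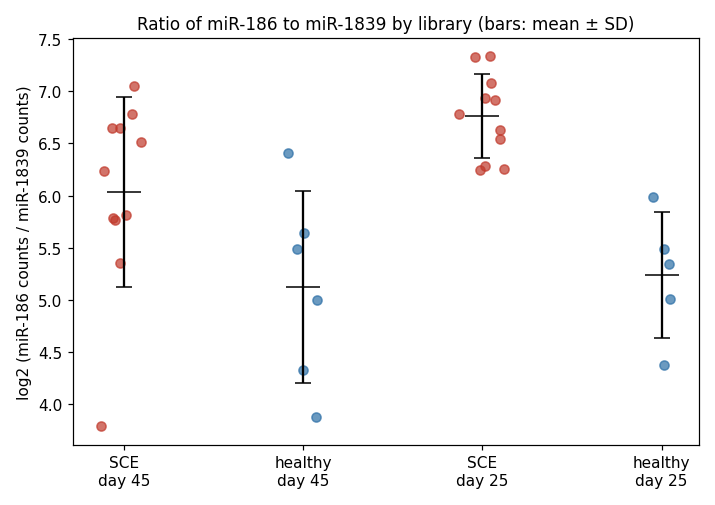
The y axis is the log2 ratio of miR-186 counts to miR-1839 counts, each point is 1 library, and bars give the mean and SD for SCE and healthy cows at day 45 and then at day 25. At day 25 the 11 SCE cows lie between 6.25 and 7.33 and the 5 healthy cows between 4.37 and 5.99.

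Both arms of miR-423 come from 1 transcript, and their ratio was the steadiest of the 10, with an SD of 0.60 on the log2 scale, while miR-423-5p to miR-320a was the most variable at 1.36. miR-423-5p outnumbered miR-423-3p by 3.49-fold in SCE cow 16 at day 25 up to 15.6-fold in healthy cow 1 at day 25. The median ratio was 5.85 in SCE cows and 10.4 in healthy cows at day 45, and 6.27 in SCE cows and 10.1 in healthy cows at day 25. The log2 difference of SCE from healthy cows was −0.67 at day 45 and −0.73 at day 25, with exact p of 0.0197 and 0.0250, and both adjusted p values were 0.0832. The groups overlapped at both days, and since the same cows gave both days the second value is no separate support for the first. The other ratios at an exact p under 0.05 were miR-423-5p to miR-186 (a log2 difference of −1.05, adjusted p = 0.0590, at day 45, and −1.38, adjusted p = 0.102, at day 25), miR-320a to miR-186 (−1.39, adjusted p = 0.0832, at day 25) and miR-423-3p to miR-1839 (0.87, adjusted p = 0.0832, at day 25). The number of ratios that passed was 6 without SCE cow 7, 4 without SCE cow 8 and 2 without healthy cow 2 or healthy cow 6.

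The comparison of SCE with healthy cows was then refitted with the count of a single molecule as the library scale. Such a scale moves every miRNA against that molecule's own difference between statuses. At day 25 on the TMM scale that difference was 0.69 for miR-186 and −0.85 for miR-1839. It was −1.13 for miR-320a, −0.75 for miR-423-5p and 0.03 for miR-423-3p. The main direction of the calls below was therefore set by the scale, and the calls are no separate result about the miRNAs named. At day 25, with miR-186 as the scale, 18.6% of 371 miRNAs passed an adjusted p of 0.05 in edgeR, 64 lower and 5 higher in SCE cows. The 5 were miR-425-3p, miR-195, miR-497, miR-30b-5p and miR-2299-3p, and those lower included miR-191 at −1.80, miR-221 at −1.84 and let-7a-5p at −1.96 on the log2 scale, which have themselves been proposed as references. On the TMM scale these 3 stood at −1.02, −0.79 and −0.94, with no call. With miR-1839 as the scale 13.5% of 371 passed, and all 50 were higher in SCE cows, among them miR-345-5p at 3.61, miR-361 at 1.61 and miR-16a at 1.92. miR-191 was not among them, and no miRNA was called lower. With miR-423-5p, miR-423-3p or miR-320a as the scale 0% of 371 passed in edgeR, with 66, 61 and 76 at an unadjusted p under 0.05. A lack of calls therefore does not mark a scale with little difference of its own between statuses. miR-423-5p and miR-320a also had the largest SDs over libraries of the 5, 0.92 and 0.80 on the TMM scale. What part that spread has in the lack of calls was not tested. With all 5 together 0% of 367 passed, with 66 at an unadjusted p under 0.05.

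miR-425-3p, the miRNA called on the TMM scale, carried a log2 fold change of 1.38 with miR-186 as the scale (adjusted p = 0.0273 in edgeR) and 3.06 with miR-1839 (adjusted p = 0.00457). It had 2.80, 2.12 and 2.87 with miR-423-5p, miR-423-3p and miR-320a, and adjusted p of 0.177, 0.174 and 0.0656. Its direction was the same on all 5 scales, which is no separate support, because a scale shifts all miRNAs of a fit together. On the TMM scale its mean log2 CPM at day 25 was 7.01 in SCE cows and 4.91 in healthy cows. These means were further apart than those of any of the 5 molecules. The median log2 fold change of all miRNAs was −0.78 with miR-186, −0.21 with miR-423-3p, 0.38 with miR-320a, 0.45 with miR-423-5p and 0.69 with miR-1839 as the scale. At day 45, 2 miRNAs (0.525% of 381), miR-150 and miR-425-3p, passed with miR-423-5p as the scale and 1 (0.262%), miR-150, with miR-1839, all higher in SCE cows. On those 2 scales the median log2 fold change of all miRNAs was 0.98 with miR-423-5p and 0.74 with miR-1839, and 92 and 70 miRNAs had an unadjusted p under 0.05. None passed with the other 3, with 35, 30 and 53 at an unadjusted p under 0.05 for miR-423-3p, miR-320a and miR-186. Without SCE cow 10 the day-45 counts for miR-423-5p and miR-1839 were 0.

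**Figure D5:**
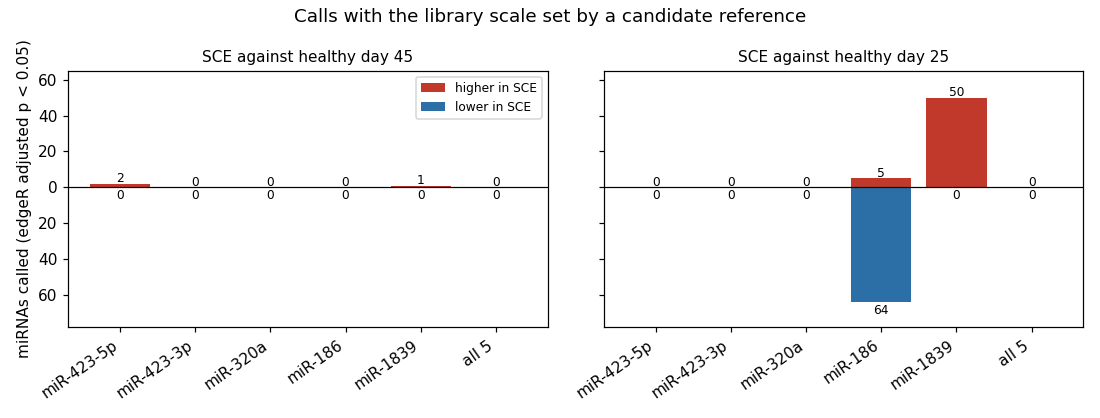
Bars count the miRNAs that passed an adjusted p of 0.05 in edgeR between SCE and healthy cows when the library scale was 1 candidate reference miRNA or all 5, at day 45 on the left and day 25 on the right, with those higher in SCE cows drawn upward and those lower drawn downward. At day 25 miR-186 gave 5 higher and 64 lower, and miR-1839 gave 50 higher and 0 lower.

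A measure of red blood cell RNA was set beside each molecule within SCE cows. The log2 CPM of each molecule was correlated with that same log2 ratio, miR-451 over miR-23a, in 11 cows per day. Permutation p was adjusted over the 10 relations. The ratio also moves with miR-23a, which at day 25 ran from 422 CPM in SCE cow 7 to 1988 CPM in SCE cow 16. Of the SCE cows that day, cow 7 had the highest miR-423-5p and cow 16 the highest miR-186. What part miR-23a has in the relations was not tested. At day 25 miR-423-5p was higher where the ratio was higher, with Pearson's r of 0.80 (permutation p = 0.0021, adjusted p = 0.0148), Spearman's rho of 0.75 (permutation p = 0.0113, adjusted p = 0.0411), and r of 0.70 without the 2 cows farthest from the median ratio. miR-186 was lower where it was higher, with r of −0.77 (permutation p = 0.0064, adjusted p = 0.0215), rho of −0.75 (permutation p = 0.0097, adjusted p = 0.0411), and r of −0.81 without those 2 cows. At day 45 miR-320a had r of −0.82 (permutation p = 0.0030, adjusted p = 0.0148), rho of −0.74 (permutation p = 0.0123, adjusted p = 0.0411), and r of −0.86 without the 2 farthest cows. miR-423-3p at day 25 had r of 0.66 (adjusted permutation p = 0.0532), which was 0.30 without the 2 farthest cows. miR-1839 had r of −0.15 at day 45 and 0.18 at day 25, with adjusted permutation p of 0.657 at each.

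None of the relations that passed at one day passed at the other, where r was 0.39 for miR-423-5p and 0.47 for miR-186 at day 45 and 0.48 for miR-320a at day 25, and the difference between days was not tested. With miR-486 in place of miR-451 the day-25 relation of miR-423-5p had r of 0.87 (adjusted permutation p = 0.0068) and rho of 0.72 (adjusted permutation p = 0.0821). That of miR-186 had r of −0.70 (adjusted permutation p = 0.0589) and rho of −0.81 (adjusted permutation p = 0.0408), so each passed by 1 of the 2 measures, and the day-45 r of miR-320a was 1.55e-04. The relation of miR-320a did not hold with miR-486.

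Over the 33 libraries, which share depth and composition, the miRNAs most like each molecule in log2 CPM were named by Pearson's r, as a description. The arms of miR-423 had r of 0.81 with each other, and each was among the other's 3 most alike. miR-423-5p was also like the scarce miR-2285cc (0.84) and miR-10225a (0.78), and miR-423-3p like miR-2403 (0.75) and miR-2285v (0.72). miR-320a was most like miR-21-5p (0.75), miR-218 (0.74) and miR-101 (0.71), and its r with miR-186 was −0.66. miR-186 was most like miR-3600 and miR-22-3p (0.85 each) and miR-425-5p (0.83). The count differences of miR-3600 and miR-22-3p, summed library by library without sign, came to 0.0023% of the larger total, so they are read here as 1 signal. miR-1839 was most like miR-2284w (0.70), miR-2284aa (0.68) and miR-2284ab (0.63).

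A list of 21 other miRNAs used as references in blood gave a yardstick. It includes miR-451 (SD 1.45), read above as a red blood cell miRNA, and the scarce miR-345-5p (mean 16.9 CPM, SD 1.74). Their median SD over libraries was 0.87, and 1 of the 21 had a lower SD than miR-423-3p, 2 than miR-1839, 3 than miR-186, 7 than miR-320a and 11 than miR-423-5p. Between statuses at day 25, 12 of the 21 had higher and 9 lower values in SCE cows. In edgeR 0 were called, where 0.269% of 372 miRNAs were, and 8 had an unadjusted p under 0.05, where 20.2% did. The median log2 fold change of the 21 was 0.25, against −0.05 over all miRNAs tested. At day 45, 10 of the 21 had higher and 11 lower values. In edgeR 0 were called, where 0% of 382 miRNAs were, and 1 had an unadjusted p under 0.05, where 10.2% did. The median of the 21 was −0.01, against 0.11 over all miRNAs tested. The 4 most abundant of the 21 had day-25 log2 fold changes of −1.02 ± 0.45 (SE) for miR-191, 0.67 ± 0.36 for miR-22-3p, 1.37 ± 0.57 for miR-26a and 0.36 ± 0.30 for miR-30e-5p. Their SDs over libraries were 0.94, 0.78, 1.07 and 0.40.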

How the data were processed

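The deposited files hold whole-number counts of reads per mature bovine miRNA, 1 file per library. Per the submitters' processing notes, bcl2fastq 2.17.1.14, genome build UMD 3.1 and DESeq2 were used. The sources used here do not name the aligner, the handling of reads matching several miRNAs, or the use of strand. Per the labels' protocols, libraries were made with the TruSeq Small RNA kit from 10 to 20 ng of small RNA and 13 or 16 PCR cycles, with no molecular identifiers named, so reads are counted after PCR. Intervals given for counting cover counting error only.

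Files were joined by name. Status at each day, day within each status and their interaction were fitted with edgeR 4.0.16 (R 4.3.3; TMM, default filter on low counts, quasi-likelihood F test, Benjamini-Hochberg adjustment over all miRNAs tested, threshold 0.05, two-sided), and SE is the absolute log2 fold change over the square root of F. The script was tested on simulated data. Levels are TMM CPM, and log2 CPM has a prior count of 2. Ratios used counts plus 0.5. Correlations used 100000 resamples. DESeq2 1.42.0, other scalings, no filter, red blood cell covariates, leaving out each cow and leaving out both libraries of SCE cow 10 were alternatives. Days were compared without a block, and cow as a block was an alternative. The numbers pair the samples because they are the same animals. Same-numbered libraries deviated together in part, with a median correlation of 0.35 in SCE cows (9 of 11 over 0.1) and 0.073 in healthy cows (2 of 5).

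The members, lists and tests were chosen with earlier results of these data known. Named miRNAs are the 5, the 3 most alike to each, the 5 abundant ones of lowest SD, the 4 most abundant other references and those called, with 2 to 4 examples from longer lists of calls. Examples of calls under a single scale were chosen after their values were seen. miRNA sequences and seeds were not used here. RefSeq genes of ARS-UCD 2.0 served for names and neighbours, with 4 of the 5 molecules matched by their own row and miR-423-3p through the shared hairpin.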

Additional observations from a re-analysis of the deposited data

How the results depend on the processing

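At day 25, where 1 miRNA was called between statuses on the TMM scale, 4 were called with DESeq2's size factors, 48 with library totals, 4 with TMM without miR-486, 6 without the filter on low counts, 14 with DESeq2, 2 with the miR-451 to miR-23a covariate and 0 scaled to the 5 molecules, and leaving out each cow gave 0 to 7. At day 45 (0 called) library totals, DESeq2 and the miR-451 covariate gave 1 each, and without the filter the difference of the day effect gave 1. The miR-186 difference at day 25 passed with library totals, at 1.76. The cause of these moves was not tested, except that library totals shift the median of all miRNAs by 0.60 at day 45 and 0.93 at day 25.

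Directions between statuses turned at day 25 for miR-423-3p (−0.015 with DESeq2's size factors, −0.022 with DESeq2, −0.12 to 0.29 leaving out each cow), miR-423-5p (0.18 with library totals, 0.25 with the miR-486 covariate) and miR-1839 (0.10 with library totals). At day 45 they turned with library totals for miR-423-5p (0.051), miR-320a (0.23) and miR-1839 (0.24), and for miR-423-3p with TMM without miR-486 (−0.058), no filter (−0.0073), the miR-486 covariate (−0.073) and leaving out each cow (−0.11 to 0.23). For day in healthy cows, miR-320a gave −0.21 with DESeq2's size factors, −0.11 with library totals, −0.028 without the filter and −0.22 with DESeq2. Library totals gave 0.078 for miR-423-3p, 0.31 for miR-186 and 0.0058 for miR-1839, and leaving out each cow gave −0.44 to 0.91 for miR-320a, −0.27 to 0.060 for miR-186 and −0.24 to 0.19 for miR-1839. For the interaction, miR-423-3p gave 0.082 with DESeq2's size factors and with DESeq2, and miR-423-5p −0.13 with library totals. None of these turned values passed the threshold on either side.

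With cow as a block, healthy cows gave a day effect of −0.042 for miR-320a, 0.025 for miR-186 and 0.014 for miR-423-5p, and the interaction for miR-423-5p was −0.31. The block changed no call. SDs over libraries with library totals were 0.70 for miR-423-3p and 1.09 for miR-186, which turned their order against miR-1839 (0.65) and miR-423-5p (0.76). Without SCE cow 10, the single-molecule scales gave 1 call for miR-320a at day 25, and 0 for miR-423-5p and 0 for miR-1839 at day 45. Ratios that passed numbered 1 to 6 leaving out each cow, and 1 correlation passed with miR-486 to miR-23a by Pearson's r (miR-423-5p at day 25) and 1 by Spearman's rho (miR-186 at day 25). The other member values kept their direction and side: 111 of 120 at day 25, 115 of 125 at day 45, 90 of 90 for day in SCE cows, 41 of 60 in healthy cows and 31 of 35 for the interaction. The tallies between statuses and for day in SCE cows enter the fit without SCE cow 10 again under another name. Depth limits miR-1839 most, with 38 counts in its lowest library.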
